A study of Homo sapiens with 24 samples.

Results

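The genes described here are 48 genes of mitosis and of the G2/M transition, chosen by symbol from a list of kinases, checkpoint proteins, kinetochore and spindle proteins, motors and regulators of mitotic exit, and all 48 were found among the 23354 genes of the read-count table. The sequenced RNA came from MV4-11 and KG-1a, established cell lines of acute myeloid leukemia (AML), after 8 h or 24 h without drug or with 1 μM of an adenosine analog. The analogs were 8-chloro-adenosine (8CA), which carries a chlorine on the adenine base, and 8-amino-adenosine (8AA), which carries an amino group there. Each line thus gave 6 groups (untreated, 8CA and 8AA at each time), with 2 libraries per group (A and B) and 24 libraries in all. Every group is labelled wild type, and the hours of the untreated groups come from the sample titles. Nothing in the labels says that the libraries of a group came from separate cultures, so the p-values measure the spread between these libraries, which may be technical.

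Cells enter mitosis when cyclin-dependent kinase 1 (CDK1) is bound by B-type cyclins and freed of inhibitory phosphate by CDC25 phosphatases, and Polo-like and Aurora kinases then drive the assembly of the spindle. The spindle checkpoint holds the anaphase-promoting complex in check until kinetochores are attached, after which CDC20 lets cyclin B and securin be destroyed and the cell divides. Most of these genes are transcribed in waves that peak in G2 and mitosis, so their RNA in a culture depends on how many cells are in those phases as well as on the RNA in each cell. In bulk RNA, fewer cells in G2 or mitosis and less RNA of these genes per cell cannot be told apart. Levels here are relative to the other RNA of a library, so a change in total RNA per cell would not be seen.

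Total counts lay between 18633963 and 24520078 per library. Levels are given as CPM, the count of a gene relative to the library total after TMM scaling (trimmed mean of M-values). Replicates A and B differed by a chi-square per degree of freedom of 1.43 to 5.20 in 11 of the 12 groups, and by 12.25 in the 8AA 24 h group of KG-1a, the pair that stood apart. The blood cell genes PTPRC (78.8 to 820 CPM) and CEBPA (60.4 to 284 CPM) were read in both lines. The receptor gene FLT3 was at 415 to 596 CPM in MV4-11, where CD34 stayed at or below 0.165 CPM. Myeloid genes CD33 (102 to 135 CPM) and MPO (7.69 to 12.6 CPM) were also read in MV4-11, with KIT at most 6.30 and CD38 at most 1.34 CPM. In KG-1a FLT3 reached 1.38, CD33 1.06 and MPO 2.25 CPM at most. In KG-1a the stem cell antigen CD34 was at 340 to 656 CPM, and the T cell genes CD3D, at 181 to 273 CPM, and CD3E, at 22.9 to 81.7 CPM, were also read there, while CD3G reached 1.00 CPM and CD2 2.02 CPM at most. Defining genes of erythroid, epithelial and fibroblast cells were at most 1.11 CPM in every library but for KRT8, at 3.51 to 7.99 CPM in MV4-11, and COL3A1, at 0.156 to 2.71 CPM in KG-1a.

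Promoters are shown first because most of these genes are known targets of the MuvB complex with B-MYB and FOXM1, which binds the cell cycle homology region (TTTGAA, or TTCAAA on the other strand), and of NF-Y, which binds the CCAAT box (CCAAT, or ATTGG on the other strand). A promoter of 300 bases, from 250 before to 50 after the listed start, was found in RefSeq (GRCh38.p14) for 40 of the 48 genes, but not for AURKA, BIRC5, BUB3, FOXM1, RACGAP1, TPX2, TTK and UBE2C. The letters TTTGAA or TTCAAA were in 30 of the 40 (75%), against 15.4% of all 27303 promoters of the same length and 10.1% of 10436 promoters of genes tested here. CCAAT or ATTGG was in 77.5% of the 40, against 35.7% of all promoters, and both motifs were in 62.5%, against 6.08%. The 120 bases just before the start are printed below for cyclin B2, PLK1, CDC20 and HMMR, which hold both motifs. They are also printed for CDC25C and CENPE, which hold neither in the 300 bases at the start used. Other starts of a gene were not searched, so a motif at another start would be missed. Sequences run 5′ to 3′ on the strand of the gene, and capitals mark the letters of either motif. In the run CCAATTGG the CCAAT and ATTGG matches overlap.
CCNB2 (chr15:59105026-59105145, + strand): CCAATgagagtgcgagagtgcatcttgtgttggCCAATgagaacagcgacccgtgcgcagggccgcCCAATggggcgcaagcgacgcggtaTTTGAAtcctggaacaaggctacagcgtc
PLK1 (chr16:23678769-23678888, + strand): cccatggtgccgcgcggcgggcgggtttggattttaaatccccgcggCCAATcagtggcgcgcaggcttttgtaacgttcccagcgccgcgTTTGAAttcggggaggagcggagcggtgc
CDC20 (chr1:43358861-43358980, + strand): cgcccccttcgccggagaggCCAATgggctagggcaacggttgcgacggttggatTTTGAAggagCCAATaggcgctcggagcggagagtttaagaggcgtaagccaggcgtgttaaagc
HMMR (chr5:163460512-163460631, + strand): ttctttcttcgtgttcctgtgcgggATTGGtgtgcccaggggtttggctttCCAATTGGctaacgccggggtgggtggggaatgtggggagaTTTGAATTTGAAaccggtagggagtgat
CDC25C (chr5:138338356-138338475, - strand): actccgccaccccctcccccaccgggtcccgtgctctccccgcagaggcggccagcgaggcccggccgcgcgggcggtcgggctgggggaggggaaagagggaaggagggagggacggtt
CENPE (chr4:103198344-103198463, - strand): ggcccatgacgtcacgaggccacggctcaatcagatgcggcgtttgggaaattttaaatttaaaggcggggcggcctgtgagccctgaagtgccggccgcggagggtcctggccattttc

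In untreated cells at 24 h, levels per kilobase of exon were highest for TOP2A in both lines. Topoisomerase IIα, its product, untangles sister chromatids, and its level was 142 CPM per kb in MV4-11 and 132 CPM per kb in KG-1a. CDC20, NUSAP1, CCNB1 and PLK1 followed at 81.3 to 98.9 CPM per kb, with BUB3 (87.1) among them in MV4-11 and TPX2 (83.6) in KG-1a. CDC25C, a phosphatase that activates CDK1, was the lowest of the 48 in both lines, at 5.94 and 3.52 CPM per kb.

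Untreated MV4-11 and KG-1a differed in these genes about as often as in all genes. Relative to KG-1a, edgeR called 24 of the 48 genes lower in MV4-11 and 14 higher at 24 h, where 82% of all 14055 genes tested in both lines were called, 41% lower and 41% higher. UBE2C, the ubiquitin-conjugating enzyme of the anaphase-promoting complex, was 2.09 ± 0.06 higher on the log2 scale (± SE, here and below), with an edgeR adjusted p = 6.14e-20. HMMR, a spindle and microtubule protein, was 1.70 ± 0.08 higher (edgeR adjusted p = 1.05e-15) and the mitotic kinase AURKB 1.23 ± 0.07 higher (edgeR adjusted p = 8.79e-14). The kinesin KIF18A, at −1.24 ± 0.08 (edgeR adjusted p = 1.18e-12), and the passenger complex scaffold INCENP, at −1.04 ± 0.05 (edgeR adjusted p = 4.89e-16), were lowest in MV4-11 relative to KG-1a. Between 8 h and 24 h without drug, 4 genes (CCNB1, CDC20, UBE2C and PLK1) fell in MV4-11, where 2.16% of all genes fell, and CDC20 fell in KG-1a, where 1.97% did. The count in MV4-11 went down to 1 without the untreated 8 h replicate A, and that in KG-1a lay between 0 and 11 as single libraries were left out, with 11 without the 8AA 24 h replicate A.

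At 24 h, the RNA of nearly all of these genes was lower in MV4-11 with either drug, and by a modest amount. With 8CA, 41 of the 48 were called lower and 0 higher by the quasi-likelihood test of edgeR (Benjamini-Hochberg adjusted p below 0.05 over all 12800 genes), where 43.9% of all genes were called, 22.7% lower and 21.2% higher. With 8AA, 46 were called lower and 0 higher, where 29.1% of all genes were called, 15.3% lower and 13.9% higher. At an unadjusted p below 0.05, 0 were higher with either drug, and DESeq2 also called 0 higher. Unadjusted counts, here and below, are of the 48 genes only, and the share of all genes at that threshold was not taken. The median log2 fold change of the 48 genes was −0.34 with 8CA (range −0.72 to 0.01) and −0.35 with 8AA (range −0.51 to −0.18), while the median over all genes was 0.00 in both. Both treated libraries lay below both untreated ones for 44 genes with 8CA, against 37% of all genes, and for 48 with 8AA, against 33.1%. The summed level of the 48 genes was 6561 and 6538 CPM in untreated cells, 5226 and 5159 after 8CA and 5089 and 5177 after 8AA. A log2 fold change of at least 1 in size was reached by 0 of the 48 genes in any of the 8 comparisons of a drug with untreated cells. The 8CA and 8AA comparisons share their untreated libraries, so the similarity of their values is not separate evidence for each.

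KG-1a answered the drugs differently at 24 h. With 8CA, 16 of the 48 genes were called lower and 7 higher (edgeR, 12711 genes tested), where 47.4% of all genes were called, 24% lower and 23.4% higher, and the median of the 48 was −0.04 (range −0.49 to 0.38). With 8AA, 4 were called lower and 29 higher, where 51.9% of all genes were called, 26.6% lower and 25.4% higher, and the median was 0.16 (range −0.37 to 0.71). Both 8AA libraries lay above both untreated ones for 31 genes, against 36.8% of all genes, and below for 6, against 35.3%. The summed level was 7236 and 7284 CPM untreated, 7100 and 7094 after 8CA and 8113 and 8344 after 8AA. Taken singly, the 8AA libraries A and B, the pair that stood apart, had medians of 0.17 and 0.15 against the untreated mean, with 35 and 37 of the 48 genes above it. The number higher with 8CA lay between 3 (without untreated 24 h replicate A) and 12 (without 8AA 24 h replicate B) as single libraries were left out. The 4 genes lower with 8AA became 1, MAD2L1, when libraries were scaled by total count or by upper quartile, and also without untreated 24 h replicate B. Scaling by total count moved the median of all genes in this comparison to 0.11 and that of the 48 genes to 0.26, with 34 called higher.

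**Figure D1:**
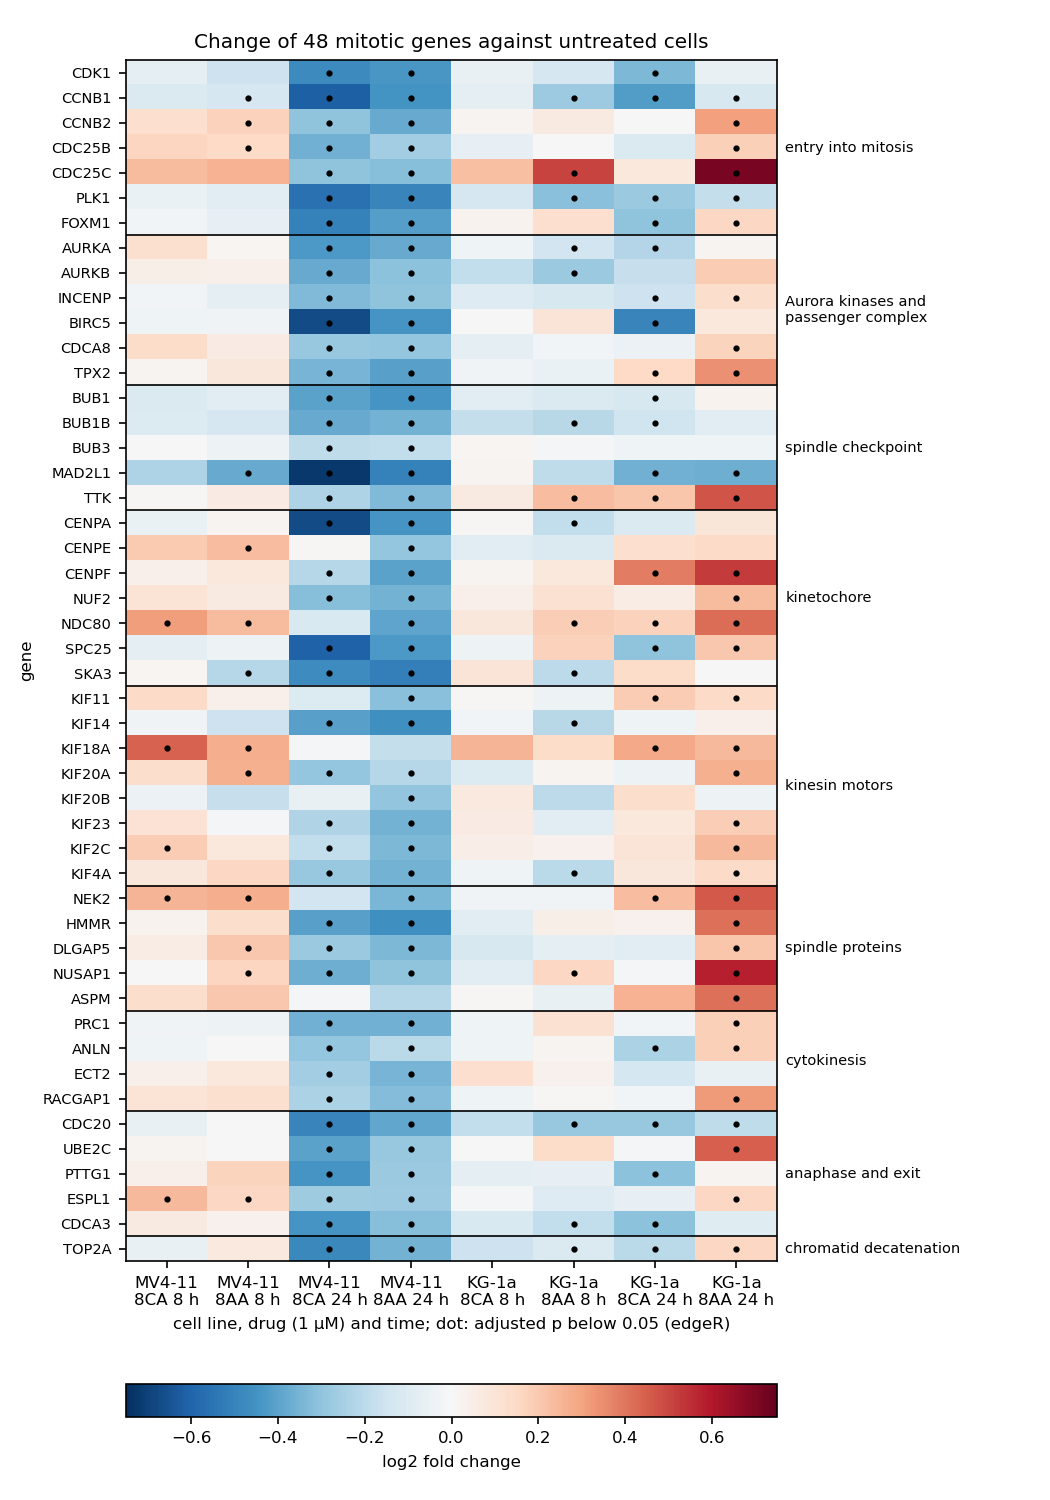
Log2 fold change against untreated cells of the same line and time (color, blue lower and red higher) for the 48 genes (vertical axis, grouped by role) in 8 comparisons (horizontal axis), with a dot where edgeR's adjusted p was below 0.05. The MV4-11 24 h columns are blue almost throughout, with 41 and 46 dots, whereas the KG-1a 8AA 24 h column is mostly red, with 29 genes called higher and 4 lower.

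Among the 7 genes of entry into mitosis, all 7 fell in MV4-11 with each drug at 24 h. In KG-1a 4 fell with 8CA, while 2 fell, near the share of all genes, and 4 rose with 8AA. Counts by role, here and below, are to be read against the shares of all genes given above. CDK1, the kinase that starts mitosis, was at 118 and 127 CPM in untreated MV4-11, 86.4 and 90.1 after 8CA and 90.5 and 90.7 after 8AA. Both drugs' libraries were below the untreated ones, with log2 fold changes of −0.48 ± 0.06 (edgeR adjusted p = 2.63e-05) and −0.44 ± 0.06 (edgeR adjusted p = 0.00013). In KG-1a, CDK1 was at 161 and 158 CPM untreated, 124 and 128 after 8CA and 144 and 163 after 8AA, so that the 8CA libraries were below and the 8AA libraries spanned the untreated ones. Its fall in KG-1a with 8CA was −0.34 ± 0.06 (edgeR adjusted p = 0.000355), and its 8AA value was −0.06 ± 0.06 (edgeR adjusted p = 0.467).

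Cyclin B1 (CCNB1), the partner that activates CDK1, was lowest with 8CA in both lines. In MV4-11 it was at 189.9 and 190.3 CPM untreated, 124 and 125 after 8CA and 136 and 142 after 8AA. The 3 groups did not overlap, and the changes were −0.62 ± 0.04 (edgeR adjusted p = 4.95e-08) and −0.45 ± 0.04 (edgeR adjusted p = 4.91e-06). In KG-1a the levels were 220.0 and 216 CPM untreated, 168 and 159 after 8CA and 205 and 196 after 8AA, again without overlap. The 8CA change there was −0.42 ± 0.05 (edgeR adjusted p = 2.65e-06). The 8AA change, −0.12 ± 0.04 (edgeR adjusted p = 0.0339), lost its call without any of untreated 24 h replicates A and B or 8AA 24 h replicate B, and under 5 other settings.

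PLK1, the Polo-like kinase of spindle assembly, fell in all 4 comparisons at 24 h. It was at 179.5 and 172 CPM in untreated MV4-11, 116 and 123 after 8CA and 121 and 128 after 8AA, changes of −0.56 ± 0.05 (edgeR adjusted p = 4.72e-07) and −0.50 ± 0.05 (edgeR adjusted p = 6.03e-06). In KG-1a it was at 192 and 198 CPM untreated, 165 and 157 after 8CA and 184 and 161 after 8AA, and no treated library reached the untreated ones. The changes were smaller there, −0.28 ± 0.06 with 8CA (edgeR adjusted p = 0.00121) and −0.18 ± 0.06 with 8AA (edgeR adjusted p = 0.0193). The call with 8AA was lost without untreated 24 h replicate B or 8AA 24 h replicate B, and under scaling by total count or upper quartile.

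The transcription factor FOXM1, which switches on many genes of this group, moved in opposite directions with the 2 drugs in KG-1a. It was at 252 and 264 CPM untreated, 208 and 209.6 after 8CA and 300.1 and 273 after 8AA, with the 3 groups apart. The changes were −0.30 ± 0.05 (edgeR adjusted p = 0.00014) and 0.15 ± 0.05 (edgeR adjusted p = 0.017), and the rise lost its call without untreated 24 h replicate A or 8AA 24 h replicate A and in a fit of the 6 libraries of that line and time. In MV4-11 it was at 143 and 137 CPM untreated, 101 and 96.2 after 8CA and 102 and 108 after 8AA, and fell by both drugs, with changes of −0.51 ± 0.05 (edgeR adjusted p = 1.53e-06) and −0.41 ± 0.05 (edgeR adjusted p = 2.83e-05). FOXM1 overlaps RHNO1 on the opposite strand, and strand use in counting is not stated, so reads of the 2 genes may be shared.

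CDC25C had the largest rise of the 48 in KG-1a. It was at 11.0 and 9.84 CPM untreated, 11.4 and 10.6 after 8CA and 18.5 and 15.7 after 8AA, and only the 8AA libraries stood clear of the others. That rise was 0.71 ± 0.11 (edgeR adjusted p = 8.3e-05), while the 8CA value was 0.08 ± 0.12 (edgeR adjusted p = 0.63). In MV4-11 it was at 18.4 and 16.8 CPM untreated, 15.7 and 12.8 after 8CA and 13.8 and 14.4 after 8AA, with treated libraries all below the untreated ones. It fell by 0.30 ± 0.10 with 8CA and by 0.32 ± 0.11 with 8AA on the log2 scale (edgeR adjusted p = 0.03 and 0.0348). The related phosphatase CDC25B fell in MV4-11 by 0.36 ± 0.06 and 0.26 ± 0.06 (edgeR adjusted p = 9.13e-05 and 0.00228) and rose in KG-1a with 8AA by 0.18 ± 0.06 (edgeR adjusted p = 0.0258). CDC25C overlaps FAM53C on the opposite strand, so shared reads cannot be told apart here either.

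The 6 genes of the Aurora kinases and the chromosomal passenger complex all fell in MV4-11 with each drug. In KG-1a, 3 fell and 1 rose with 8CA, and 3 rose and 0 fell with 8AA. AURKA, which builds the spindle poles, was at 82.1 and 81.5 CPM in untreated MV4-11, 60.8 and 60.3 after 8CA and 59.3 and 66.4 after 8AA, a clear separation of treated from untreated libraries. Its changes were −0.43 ± 0.06 with 8CA (edgeR adjusted p = 2.16e-05) and −0.38 ± 0.06 with 8AA (edgeR adjusted p = 0.000159). In KG-1a it was at 105 and 103 CPM untreated, 91.6 and 86.7 after 8CA and 109 and 102 after 8AA. Its change with 8CA, −0.22 ± 0.06 (edgeR adjusted p = 0.00406), lost its call without 8CA 24 h replicate B, and the 8AA libraries lay on both sides of the untreated ones.

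AURKB, the enzyme of the passenger complex, was at 68.7 and 63.7 CPM in untreated MV4-11, 51.7 and 49.998 after 8CA and 51.8 and 55.4 after 8AA. It fell with both drugs, with changes of −0.38 ± 0.06 (edgeR adjusted p = 7.42e-05) and −0.31 ± 0.06 (edgeR adjusted p = 0.000985). Its levels in KG-1a, 29.5 and 31.1 CPM untreated, 27.3 and 26.5 after 8CA and 37.3 and 31.8 after 8AA, gave no call against untreated cells, with edgeR adjusted p = 0.11 and 0.064. Like BIRC5, borealin (CDCA8) belongs to this complex, and it was at −0.29 ± 0.06 and −0.29 ± 0.06 in MV4-11 (edgeR adjusted p = 0.000768 and 0.00147). BIRC5, or survivin, targets the complex to centromeres and also restrains cell death. It was at 112 and 118 CPM in untreated MV4-11, 70.4 and 74.4 after 8CA and 83.9 and 85.5 after 8AA, with 8CA lowest. The changes were −0.67 ± 0.05 (edgeR adjusted p = 1.14e-07) and −0.44 ± 0.05 (edgeR adjusted p = 2.04e-05). In KG-1a it was at 174 and 175 CPM untreated, 125 and 123 after 8CA and 195 and 172 after 8AA. BIRC5 thus had the lowest 8CA value of the 48 in KG-1a, −0.49 ± 0.06 (edgeR adjusted p = 3.45e-06), with 8AA at 0.08 ± 0.05 (edgeR adjusted p = 0.251).

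**Figure D2:**
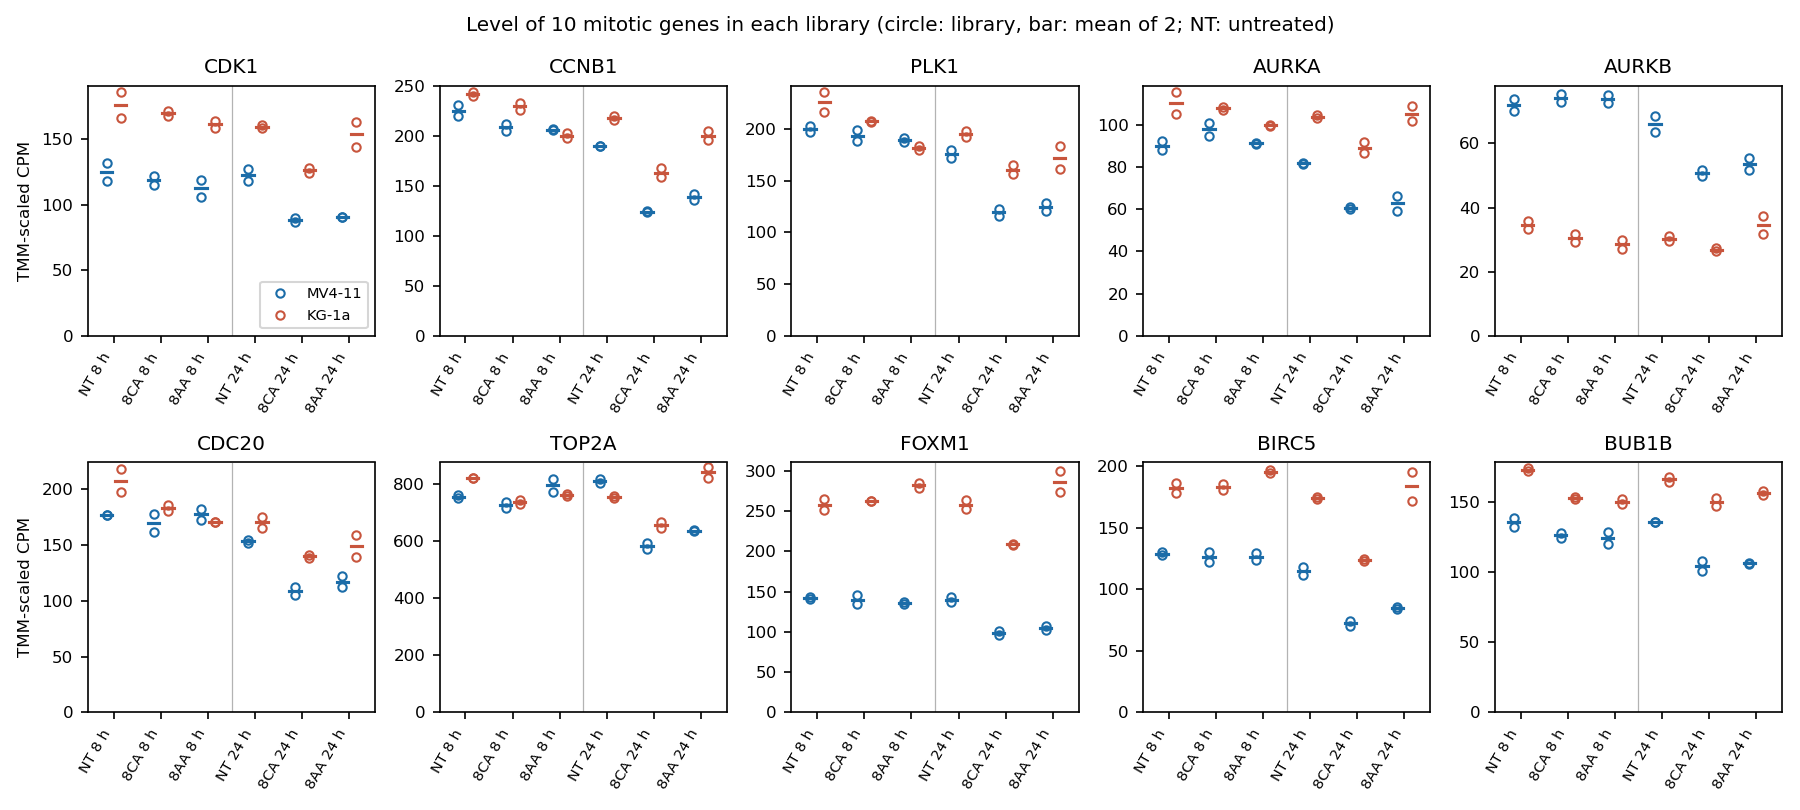
Level in CPM of single genes (panels) in each of the 24 libraries (points) by cell line, treatment and time (horizontal axis). In MV4-11 the 24 h treated points of CDK1 lie at 86.4 to 90.7 CPM, below the untreated 118 and 127, whereas in KG-1a the 8AA points of CDK1 span the untreated ones.

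All 5 spindle checkpoint genes fell in MV4-11 with each drug. In KG-1a 3 fell and 1 rose with 8CA, and 1 fell and 1 rose with 8AA, the latter near the shares of all genes. MAD2L1 encodes MAD2, the checkpoint protein that captures CDC20. It was at 83.7 and 99.8 CPM in untreated MV4-11, 57.2 and 54.1 after 8CA and 70.2 and 59.2 after 8AA. Its untreated libraries were well apart, and all treated ones were lower. The 8CA change, −0.72 ± 0.11 (edgeR adjusted p = 8.64e-05), was the lowest of the 48. The 8AA change, −0.50 ± 0.11 (edgeR adjusted p = 0.00293), lost its call without untreated 24 h replicate B or 8AA 24 h replicate B. In KG-1a it was at 105 and 104 CPM untreated, 79.3 and 84.0 after 8CA and 77.5 and 85.6 after 8AA, lower with both drugs. The changes there were −0.36 ± 0.08 (edgeR adjusted p = 0.00166) and −0.37 ± 0.08 (edgeR adjusted p = 0.00126), against the rise of most of the group with 8AA.

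BUB1B encodes BUBR1, part of the complex that inhibits CDC20. It was at 135 and 135 CPM in untreated MV4-11, 108 and 101 after 8CA and 106 and 106 after 8AA, and fell with both, with changes of −0.38 ± 0.05 (edgeR adjusted p = 2.23e-05) and −0.35 ± 0.05 (edgeR adjusted p = 9.85e-05). In KG-1a its change with 8CA was −0.15 ± 0.04 (edgeR adjusted p = 0.0114), a call lost without untreated 24 h replicate A or 8CA 24 h replicate A and in a fit of the 6 libraries of that line and time. TTK, the kinase MPS1 that starts the checkpoint signal, went the other way in KG-1a, at 78.6 and 79.7 CPM untreated, 92.1 and 91.0 after 8CA and 101 and 119 after 8AA. All 4 treated libraries were above the untreated ones. TTK rose by 0.21 ± 0.07 with 8CA (edgeR adjusted p = 0.024) and by 0.47 ± 0.07 with 8AA (edgeR adjusted p = 4.52e-05), and in MV4-11 it fell by 0.23 ± 0.07 and 0.33 ± 0.07 (edgeR adjusted p = 0.0118 and 0.00188).

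In MV4-11, 5 of 7 kinetochore genes fell with 8CA and all 7 with 8AA. In KG-1a 1 fell and 2 rose with 8CA, near the shares of all genes (24% and 23.4%). With 8AA 4 rose and 0 fell there, against 25.4% and 26.6% of all genes. CENPA, the histone that marks centromeres, was at 52.7 and 51.3 CPM in untreated MV4-11, 32.1 and 33.2 after 8CA and 38.3 and 38.3 after 8AA. The 3 groups were apart, with 8CA lowest, and the changes were −0.67 ± 0.06 (edgeR adjusted p = 6.22e-07) and −0.44 ± 0.06 (edgeR adjusted p = 8.2e-05). In KG-1a its changes were −0.11 ± 0.06 and 0.09 ± 0.06 (edgeR adjusted p = 0.176 and 0.232).

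CENPF, a large protein of the outer kinetochore, fell in MV4-11 and rose in KG-1a with each drug. It was at 643 and 613 CPM in untreated MV4-11, 553 and 530.2 after 8CA and 464 and 488 after 8AA, and the changes were −0.21 ± 0.05 (edgeR adjusted p = 0.00129) and −0.40 ± 0.05 (edgeR adjusted p = 1.64e-05). In KG-1a the levels were 489 and 485 CPM untreated, 637 and 634 after 8CA and 668 and 733 after 8AA. Every treated KG-1a library was above the untreated ones, with changes of 0.38 ± 0.04 (edgeR adjusted p = 4.9e-06) and 0.52 ± 0.04 (edgeR adjusted p = 1.36e-07).

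NDC80 and SPC25 are subunits of the same complex, the microtubule anchor of the kinetochore, and differed in their 8CA calls. NDC80 was at 62.4 and 60.5 CPM in untreated MV4-11, 53.5 and 60.2 after 8CA and 45.0 and 48.3 after 8AA, and it fell with 8AA only by the test, with changes of −0.11 ± 0.06 (edgeR adjusted p = 0.151) and −0.40 ± 0.06 (edgeR adjusted p = 0.00023). SPC25 was at 27.1 and 29.7 CPM untreated, 18.5 and 18.9 after 8CA and 21.3 and 20.8 after 8AA, a fall with both, at −0.60 ± 0.07 (edgeR adjusted p = 1.15e-05) and −0.43 ± 0.07 (edgeR adjusted p = 0.000436). With 8CA in KG-1a, NDC80 rose by 0.17 ± 0.05 (edgeR adjusted p = 0.0106) while SPC25 fell by 0.30 ± 0.07 (edgeR adjusted p = 0.00335). With 8AA in KG-1a both rose, NDC80 by 0.42 ± 0.05 (edgeR adjusted p = 4.71e-06) and SPC25 by 0.20 ± 0.07 (edgeR adjusted p = 0.0231). SKA3, of the SKA complex that couples kinetochores to shrinking microtubules, had the lowest 8AA value in MV4-11. It was at 79.3 and 77.4 CPM untreated, 57.8 and 55.1 after 8CA and 56.5 and 53.4 after 8AA, a change with 8AA of −0.51 ± 0.06 (edgeR adjusted p = 3.6e-05). In KG-1a with 8AA the value was 0.01 ± 0.06 (edgeR adjusted p = 0.943). SKA3 overlaps MRPL57 on the opposite strand, so shared reads cannot be told apart here either.

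CENPE, a kinetochore motor, changed in MV4-11 with 8AA alone by the test. It was at 93.8 and 87.9 CPM untreated, 94.7 and 88.1 after 8CA and 72.9 and 75.6 after 8AA, so that the 8CA libraries overlapped the untreated ones. The values were 0.01 ± 0.08 (edgeR adjusted p = 0.937) and −0.29 ± 0.08 (edgeR adjusted p = 0.0102). NUF2, another subunit of the NDC80 complex, fell with both drugs in MV4-11 and rose with 8AA in KG-1a.

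Of the 8 kinesin motors, 5 were called lower and 0 higher with 8CA in MV4-11, with a median of −0.21, against 7 lower and a median of −0.33 with 8AA. In KG-1a 2 rose, near the share of all genes, and 0 fell with 8CA, and 6 rose and 0 fell with 8AA. KIF11 pushes spindle poles apart. It was at 163 and 169 CPM in untreated MV4-11, 163 and 147 after 8CA and 137 and 130.3 after 8AA, and fell with 8AA by 0.31 ± 0.06 (edgeR adjusted p = 0.00103), with a value of −0.10 ± 0.06 for 8CA (edgeR adjusted p = 0.176). In KG-1a it was at 245 and 245 CPM untreated, 280.1 and 280.3 after 8CA and 253 and 288 after 8AA, higher in every treated library. The rises were 0.19 ± 0.06 (edgeR adjusted p = 0.00971) and 0.14 ± 0.06 (edgeR adjusted p = 0.0436).

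KIF18A, which damps chromosome movements, was at 63.4 and 63.7 CPM in untreated KG-1a, 74.8 and 80.3 after 8CA and 70.6 and 80.1 after 8AA. It rose with both, by 0.29 ± 0.06 (edgeR adjusted p = 0.00194) and 0.24 ± 0.06 (edgeR adjusted p = 0.00509). MV4-11 had 24.7 and 25.5 CPM untreated, 25.9 and 24.0 after 8CA and 24.3 and 19.977 after 8AA, with no call (edgeR adjusted p = 0.955 and 0.19). KIF20A, a motor of the cleavage furrow, fell in MV4-11 by 0.29 ± 0.05 and 0.21 ± 0.05 (edgeR adjusted p = 0.000327 and 0.00587) and rose in KG-1a with 8AA by 0.27 ± 0.06 (edgeR adjusted p = 0.00137). KIF20B fell in MV4-11 with 8AA, and KIF14 and KIF23, which act in cytokinesis, the microtubule depolymerase KIF2C and the chromokinesin KIF4A fell with both. KIF4A has a near-identical copy, KIF4B, so its reads may have been split.

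In MV4-11, 3 of 5 spindle proteins fell with 8CA and 4 of them with 8AA, while in KG-1a all 5 rose with 8AA, with a median of 0.41. NUSAP1 bundles spindle microtubules. It was at 218 and 218 CPM in untreated KG-1a, 215 and 217 after 8CA and 326 and 327 after 8AA, so 8CA left it near the untreated level. The changes were −0.01 ± 0.04 (edgeR adjusted p = 0.83) and 0.58 ± 0.04 (edgeR adjusted p = 1.54e-08). In MV4-11 it was at 210.1 and 224 CPM untreated, 172 and 166 after 8CA and 173 and 179.9 after 8AA, and fell by 0.36 ± 0.05 and 0.30 ± 0.05 (edgeR adjusted p = 3.62e-05 and 0.000401).

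HMMR was at 40.2 and 39.6 CPM in untreated KG-1a, 38.8 and 42.9 after 8CA and 49.3 and 57.2 after 8AA, and rose with 8AA by 0.41 ± 0.07 (edgeR adjusted p = 0.000219). In MV4-11 it fell by 0.41 ± 0.08 and 0.46 ± 0.08 (edgeR adjusted p = 0.000501 and 0.000405). NEK2, a centrosome kinase, was at 43.8 and 44.5 CPM in untreated KG-1a, 51.7 and 52.1 after 8CA and 59.6 and 61.8 after 8AA, a step up with each drug. Its rises were 0.23 ± 0.06 (edgeR adjusted p = 0.00269) and 0.46 ± 0.05 (edgeR adjusted p = 4.37e-06). ASPM, a spindle pole protein, was at 319 and 319.9 CPM untreated and 349.8 and 503 with 8AA in KG-1a, a rise of 0.41 ± 0.11 (edgeR adjusted p = 0.00418). Its 8AA replicates were far apart, and both lay above the untreated ones. DLGAP5 fell with both drugs in MV4-11 and rose with 8AA in KG-1a.

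The 4 cytokinesis genes PRC1, ANLN, ECT2 and RACGAP1 all fell in MV4-11 with each drug. In KG-1a 1 fell, near the share of all genes, and 0 rose with 8CA, and 3 rose and 0 fell with 8AA. PRC1, which crosslinks the central spindle, was at 187 and 178 CPM in untreated MV4-11, 137 and 147 after 8CA and 137 and 147 after 8AA. Both changes were close, at −0.36 ± 0.05 (edgeR adjusted p = 3.75e-05) and −0.36 ± 0.05 (edgeR adjusted p = 9.53e-05). In KG-1a the levels were 155 and 155 CPM untreated, 154 and 151 after 8CA and 181 and 171 after 8AA, higher with 8AA by 0.18 ± 0.05 (edgeR adjusted p = 0.00338). PRC1 overlaps the antisense gene PRC1-AS1.

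All 5 genes of anaphase and mitotic exit (CDC20, UBE2C, PTTG1, ESPL1 and CDCA3) fell in MV4-11 with each drug. In KG-1a 3 fell and 0 rose with 8CA. With 8AA 1 fell there, near the share of all genes, and 2 rose. CDC20, the activator of the anaphase-promoting complex, was at 154 and 152 CPM in untreated MV4-11, 105 and 113 after 8CA and 113 and 122 after 8AA. It fell with both, at −0.49 ± 0.06 (edgeR adjusted p = 5.81e-06) and −0.39 ± 0.06 (edgeR adjusted p = 0.000126). In KG-1a it was at 165 and 175 CPM untreated, 138 and 141 after 8CA and 159 and 139 after 8AA, and every treated library was below the untreated ones. Its changes there were −0.29 ± 0.06 (edgeR adjusted p = 0.00154) and −0.19 ± 0.06 (edgeR adjusted p = 0.0179), the latter lost without untreated 24 h replicate B or 8AA 24 h replicate B, and under scaling by total count or upper quartile. PTTG1, securin, has near-identical copies (PTTG2 and PTTG3P), so its counts are uncertain.

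TOP2A was at 806 and 819 CPM in untreated MV4-11, 592 and 571 after 8CA and 638 and 634 after 8AA, and fell by 0.48 ± 0.04 (edgeR adjusted p = 3.51e-07) and 0.35 ± 0.04 (edgeR adjusted p = 2.21e-05). In KG-1a it was at 752 and 759 CPM untreated, 667 and 646 after 8CA and 823 and 861 after 8AA. The groups there lay in the order 8CA, untreated, 8AA, without overlap. The change was −0.20 ± 0.04 with 8CA (edgeR adjusted p = 0.000691) and 0.16 ± 0.04 with 8AA (edgeR adjusted p = 0.00392), and the rise lost its call without untreated 24 h replicate A.

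The difference between the lines was tested directly in a fit of all 24 libraries. For 8CA at 24 h, the change in MV4-11 was below that in KG-1a for all 48 genes, and the difference was called for 22, where 5.44% of all 14055 genes were called in this direction. This count lay between 14 (without MV4-11 untreated 24 h replicate B) and 30 (without KG-1a 8AA 24 h replicate B). For 8AA at 24 h, it was again below for all 48 and called for 41, where 8.51% of all genes were, and 0 genes were called the other way for either drug at 24 h, at an unadjusted p below 0.05 and by DESeq2 as well. The lowest differences with 8AA were CDC25C at −1.01 ± 0.16 (edgeR adjusted p = 6.75e-05), CENPF at −0.90 ± 0.06 (edgeR adjusted p = 1.15e-09) and NUSAP1 at −0.86 ± 0.06 (edgeR adjusted p = 1.33e-09). With 8CA they were SKA3 at −0.59 ± 0.08 (edgeR adjusted p = 4.83e-05), CENPF at −0.58 ± 0.06 (edgeR adjusted p = 1.36e-06) and CENPA at −0.54 ± 0.09 (edgeR adjusted p = 0.000171). With 8AA, 27 of the 48 genes were called lower in MV4-11 and higher in KG-1a, and 4 (CCNB1, PLK1, MAD2L1 and CDC20) lower in both. With 8CA, 3 were called lower in MV4-11 and higher in KG-1a, and 16 lower in both. The share of all genes called jointly in both lines was not taken. Singly with 8AA, 15.3% of all genes were lower in MV4-11, and 26.6% were lower and 25.4% higher in KG-1a. With 8CA, 22.7% were lower in MV4-11, and 24% were lower and 23.4% higher in KG-1a. At 8 h the lines differed in 0 of the 48 genes with 8CA (edgeR), where 1.15% of all genes were called, 0.726% lower and 0.427% higher, with 0 lower and 11 higher at an unadjusted p below 0.05 and 0 called by DESeq2. With 8AA at 8 h, MV4-11 was above KG-1a for 10, where 11.1% of all genes were called, 3.6% lower and 7.49% higher, among them KIF4A at 0.40 ± 0.07 (edgeR adjusted p = 0.000946). As single libraries were left out, that count lay between 3 (without KG-1a 8CA 8 h replicate B) and 15 (without KG-1a 8AA 24 h replicate A).

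**Figure D3:**
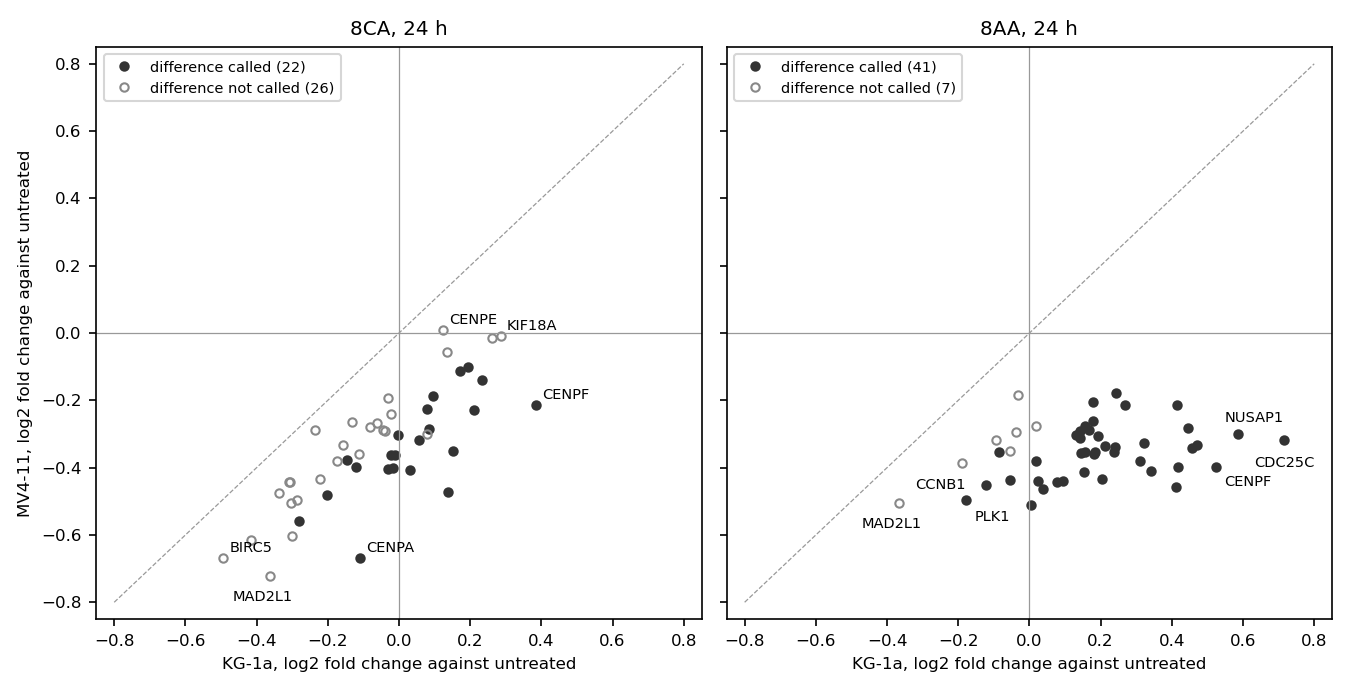
Log2 fold change against untreated cells at 24 h in KG-1a (horizontal axis) and MV4-11 (vertical axis) for the 48 genes (points), with 8CA on the left and 8AA on the right. Filled points mark genes whose difference between lines was called, 22 with 8CA and 41 with 8AA, and all points lie below the dashed line of equal change.

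At 8 h, 0 to 16 of the 48 genes were called, in shares near or below those of all genes when both directions are pooled. By direction, in MV4-11 10.4% were higher with 8CA, against 4.58% of all genes, and 20.8% with 8AA, against 13.6%. In KG-1a with 8AA 25% were lower, against 18% of all genes. The opposite direction was below the share of all genes in each of these comparisons. With 8CA in MV4-11, 5 were called higher and 0 lower (edgeR), where 10.4% of all genes were called, 4.58% higher and 5.77% lower. At an unadjusted p below 0.05, without a share of all genes beside it, 15 were higher and 3 lower, and DESeq2 called 0 lower. In MV4-11 with 8AA, 10 were called higher and 3 lower, where 29.2% of all genes were called, 13.6% higher and 15.6% lower. These counts fell to as low as 2 higher with 8CA and 5 higher with 8AA without the untreated 8 h replicate A, and to 0 lower with 8AA without the 8AA 8 h replicate B. With the replicate letter as a block, 6 were lower and 14 higher with 8AA, and 7 higher with 8CA. With 8CA in KG-1a, 0 were called in either direction by edgeR, where 0.881% of all genes were called, 0.181% lower and 0.7% higher. At an unadjusted p below 0.05, 6 were lower and 1 higher, and DESeq2 called 1 lower and 0 higher. After 8AA in KG-1a, the call was lower for 12 and higher for 4, where 34.7% of all genes were called, 18% lower and 16.7% higher, with 6 lower and 0 higher without the 8AA 8 h replicate A.

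KIF18A and NDC80 were among the genes called higher in MV4-11 at 8 h. NDC80 was at 57.5 and 58.5 CPM untreated, 73.1 and 71.4 after 8CA and 66.9 and 69.8 after 8AA at 8 h, all treated libraries above the untreated ones. The rises were 0.32 ± 0.06 (edgeR adjusted p = 0.0044) and 0.24 ± 0.06 (edgeR adjusted p = 0.00827). KIF18A was at 26.6 and 23.0 CPM untreated and 35.4 and 31.8 with 8CA, a rise of 0.44 ± 0.10 (edgeR adjusted p = 0.00874) that lost its call without untreated 8 h replicate B or 8CA 8 h replicate A. NEK2 was called higher at 8 h in MV4-11 with both drugs, by 0.26 ± 0.07 and 0.27 ± 0.07 (edgeR adjusted p = 0.0252 and 0.00667), the former lost without any of untreated or 8CA 8 h replicates A and B, in a fit of 6 libraries and by DESeq2, and the latter without untreated 8 h replicate B or 8AA 8 h replicate A. In KG-1a with 8AA at 8 h, PLK1 fell by 0.32 ± 0.06 (edgeR adjusted p = 0.000704), CDC20 by 0.28 ± 0.06 (edgeR adjusted p = 0.00221) and CCNB1 by 0.27 ± 0.04 (edgeR adjusted p = 0.000236). CDC25C rose there by 0.51 ± 0.12 (edgeR adjusted p = 0.00402), a call lost without 8AA 8 h replicate A.

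The change from 8 h to 24 h was also tested. In MV4-11 the response at 24 h was below that at 8 h for all 48 genes with each drug. The difference was called for 41 with 8CA, where 16.3% of all genes were called, 9.83% lower and 6.48% higher, and for 36 with 8AA, where 4.63% were, 2.12% lower and 2.51% higher. The 36 became 20 without the 8AA 24 h replicate A. BIRC5 had the lowest such difference among the named genes with 8CA, −0.63 ± 0.07 (edgeR adjusted p = 5.12e-05), and NDC80 with 8AA, −0.63 ± 0.09 (edgeR adjusted p = 0.00137). In KG-1a with 8CA, 6 were called lower and 2 higher, where 23.9% of all genes were called, 12.7% lower and 11.2% higher. In KG-1a with 8AA, 18 were called higher and 0 lower, where 18.3% of all genes were called, 7.64% higher and 10.7% lower, and 29 were higher and 0 lower at an unadjusted p below 0.05, with 0 lower by DESeq2. The 18 lay between 8 (without untreated 24 h replicate A) and 27 (without 8AA 24 h replicate B). CENPF at 0.45 ± 0.06 (edgeR adjusted p = 0.000255) and NEK2 at 0.48 ± 0.08 (edgeR adjusted p = 0.000605) were among the 18. Both CENPF and NEK2 were close to the untreated level at 8 h with 8AA in KG-1a, at 544 and 545 CPM against 517 and 515 for CENPF and 48.4 and 49.6 against 48.9 and 50.8 for NEK2.

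The 2 analogs, which differ in the group carried on the adenine base, were compared directly at 1 μM and at each time. In MV4-11 at 24 h, 5 genes were lower and 4 higher with 8AA than with 8CA (edgeR), where 21.2% of all genes were called, 9.48% lower and 11.7% higher, and the median difference of the 48 was 0.00. The counts were 1 lower and 0 higher without the 8CA 24 h replicate A. CCNB1 was higher with 8AA by 0.16 ± 0.04 (edgeR adjusted p = 0.0159) and BIRC5 by 0.23 ± 0.05 (edgeR adjusted p = 0.00643), each lost without 8CA 24 h replicate A or 8AA 24 h replicate B, and for CCNB1 also without 8CA 24 h replicate B. NDC80 was lower by 0.28 ± 0.06 (edgeR adjusted p = 0.00436), lost without 8CA 24 h replicate B or 8AA 24 h replicate A. CENPF was lower by 0.19 ± 0.05 (edgeR adjusted p = 0.00898), but it was not among the genes rechecked singly here. NDC80 kept its call without 8CA 24 h replicate A, so CENPF was not the gene left lower in that setting. The 39 genes without a call had 95% intervals of the difference that all lay within −0.43 to 0.46, with a median half-width of 0.12. For CDK1 that interval was −0.10 to 0.18 and for PLK1 −0.05 to 0.17.

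In KG-1a at 24 h, 33 of the 48 genes were higher with 8AA than with 8CA and 0 lower (edgeR), where 42% of all genes were called, 20.3% higher and 21.7% lower. At an unadjusted p below 0.05, 34 were higher and 2 lower, DESeq2 called 0 lower, and the median difference was 0.22. Both 8AA libraries lay above both 8CA libraries for 36 genes, against 32.8% of all genes. The lead was widest for CDC25C, at 0.64 ± 0.11 (edgeR adjusted p = 0.000305), NUSAP1, at 0.60 ± 0.04 (edgeR adjusted p = 1.57e-08), and BIRC5, at 0.57 ± 0.05 (edgeR adjusted p = 8.97e-07). FOXM1 differed by 0.46 ± 0.05 (edgeR adjusted p = 3.39e-06) and TOP2A by 0.36 ± 0.04 (edgeR adjusted p = 4.35e-06). MAD2L1 gave a difference of −0.00 ± 0.08 (edgeR adjusted p = 0.981), with a 95% interval of −0.18 to 0.17. The 15 genes without a call had intervals within −0.34 to 0.38.

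At 8 h the analogs differed in fewer of these genes. In MV4-11, SKA3 alone was called, lower with 8AA by 0.22 ± 0.06 (edgeR adjusted p = 0.0451), where 6.66% of all genes were called, 3.7% lower and 2.96% higher, and this call was lost without any 1 of 11 libraries of the line and under 5 other settings. The other 47 genes had 95% intervals within −0.38 to 0.27. In KG-1a, 8 were lower and 3 higher with 8AA, where 30.4% of all genes were called, 15.8% lower and 14.7% higher, and 2 lower and 1 higher without the 8CA 8 h replicate A. SKA3 was lower there by 0.29 ± 0.06 (edgeR adjusted p = 0.00129) and NUSAP1 higher by 0.24 ± 0.04 (edgeR adjusted p = 0.000461). The 37 genes without a call in KG-1a had intervals within −0.34 to 0.53.

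**Figure D4:**
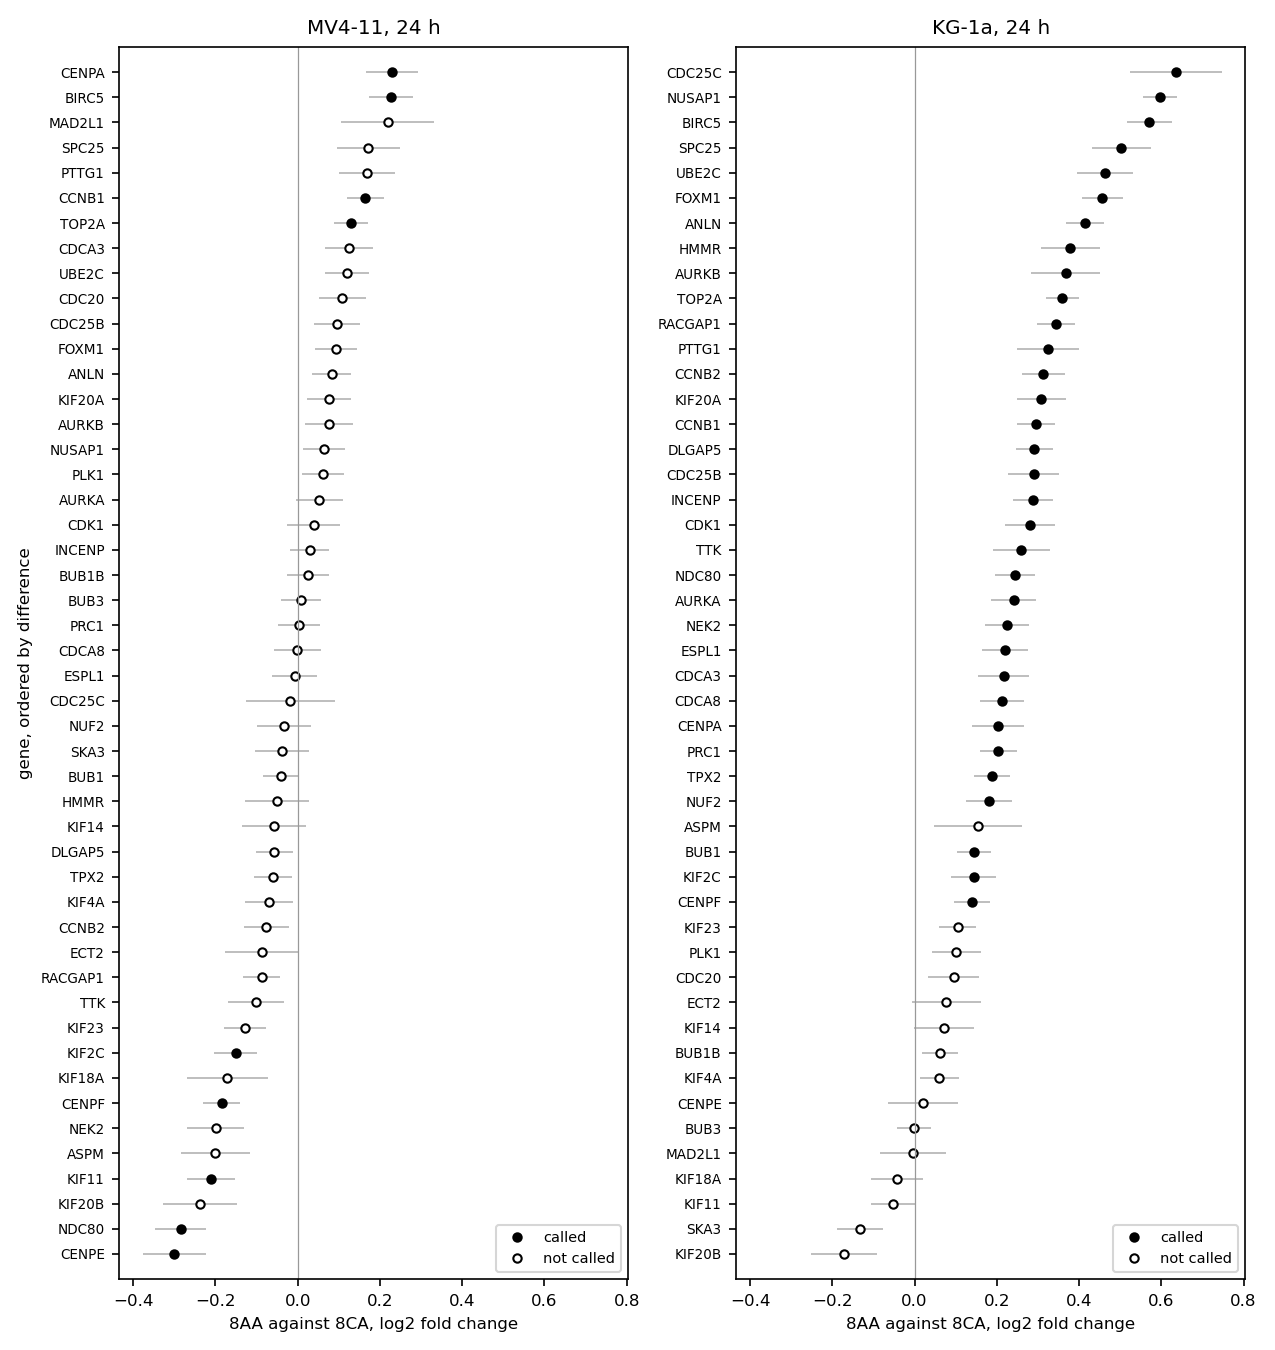
Log2 fold change of 8AA against 8CA at 24 h (horizontal axis, points with bars of 1 SE) for the 48 genes (vertical axis, ordered by the difference) in MV4-11 on the left and KG-1a on the right, with filled points where edgeR's adjusted p was below 0.05. In MV4-11 points lie on both sides of 0 with 9 called, whereas in KG-1a all 33 called points lie above 0.

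Genes of this group with a short span in the genome tended to have lower values with 8CA. The span, from the first to the last base of the gene in the deposited table, ran from 4.25 kb (CDC20) to 131 kb (KIF4A). Across the 48 genes, Spearman's correlation of span with the log2 fold change was 0.599 in MV4-11 and 0.586 in KG-1a with 8CA at 24 h, against 0.14 and 0.0818 across all genes tested. With 8AA it was 0.123 and 0.281, against 0.0209 and 0.0206 across all genes. Split at 28.9 kb, the shorter genes had a median of −0.44 and the longer −0.28 in MV4-11 with 8CA, and −0.14 and 0.07 in KG-1a. At 24 h in MV4-11 the difference of 8AA from 8CA gave a correlation of −0.705 over the 48 genes, against −0.201 over all genes, and in KG-1a −0.321, against −0.0789. These are descriptions across genes that share libraries, and genes are not independent replicates. Exon length also went with the 8CA change in MV4-11, at 0.507, and its part in the relation with span was not tested.

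**Figure D5:**
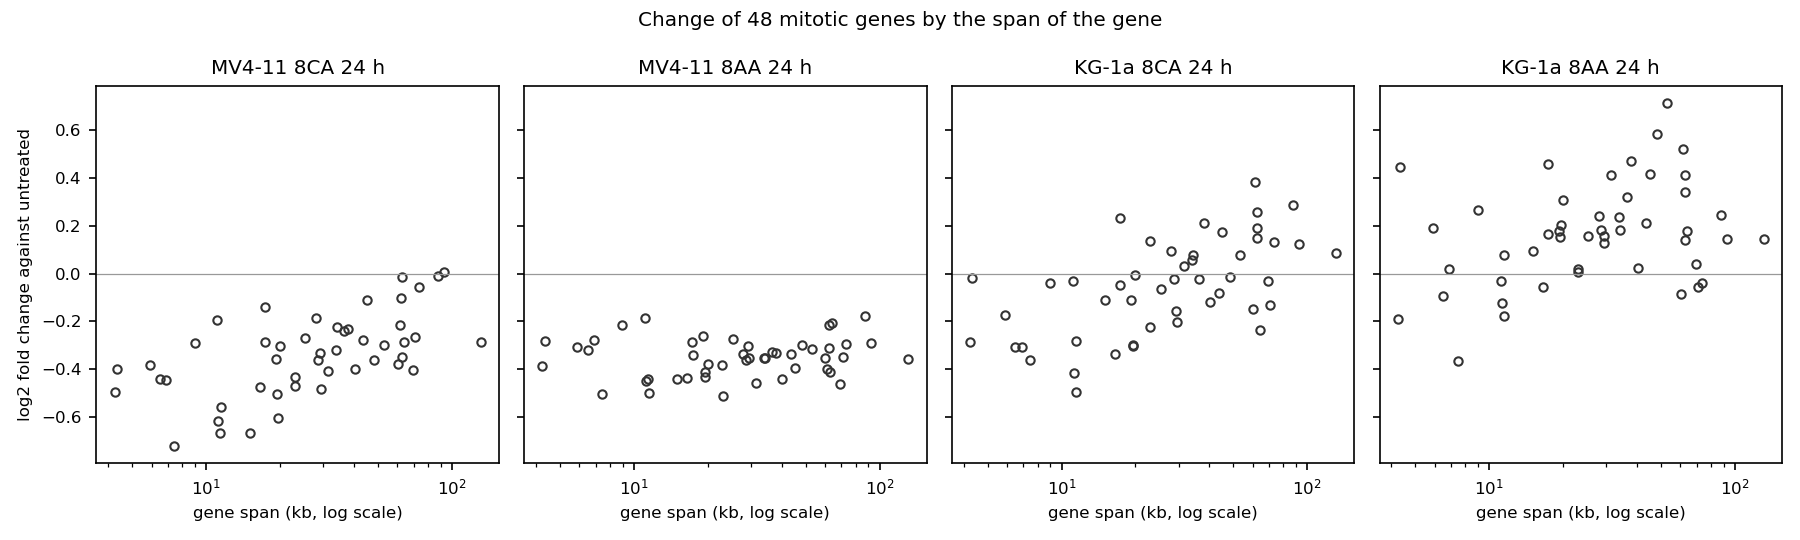
Log2 fold change against untreated cells at 24 h (vertical axis) by the span of the gene in kb (horizontal axis, log scale) for the 48 genes (points), in 4 panels of line and drug. With 8CA the points rise from short to long genes in both lines, with Spearman's correlations of 0.599 and 0.586, and with 8AA the correlations are 0.123 and 0.281.

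Genes with and without the promoter motif TTTGAA or TTCAAA were also set side by side. In MV4-11 at 24 h with 8CA, the 30 genes with it had a median of −0.33, with 25 called lower, and the 10 genes without had a median of −0.33, with 8 called lower. With 8AA the medians were −0.35 and −0.31, with 28 of 30 and 10 of 10 called lower. In KG-1a at 24 h with 8AA, 19 of the 30 and 5 of the 10 were called higher, and 3 and 1 lower. Of all genes tested in MV4-11 at 24 h, 22.7% were called lower with 8CA and 15.3% with 8AA. Of all genes tested in KG-1a at 24 h with 8AA, 25.4% were called higher and 26.6% lower. No such split by motif is given for genes outside this group. CDC25C holds neither motif in the 300 bases at the start used, and HMMR holds both. Each rose in KG-1a with 8AA and fell in MV4-11. Other starts of CDC25C were not searched, and whether the motif bears on the change was not tested.

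Other genes of the cell cycle were read from lists that hold no member of the 48. Of 48 other periodic G2/M genes, 39 fell and 1 rose in MV4-11 with 8CA at 24 h (median −0.38), and 42 fell and 0 rose with 8AA (median −0.35). In KG-1a, 20 of 47 fell and 11 rose with 8CA, and 6 fell and 22 rose with 8AA. Cyclin A2, which partners CDK1 and CDK2, fell in MV4-11 by 0.58 ± 0.06 with 8CA and 0.50 ± 0.06 with 8AA (edgeR adjusted p = 2.68e-06 and 2.8e-05), and in KG-1a by 0.28 ± 0.05 with 8CA (edgeR adjusted p = 0.000112), with −0.08 ± 0.05 for 8AA (edgeR adjusted p = 0.145). The proliferation marker MKI67 fell in MV4-11 by 0.24 ± 0.05 and 0.34 ± 0.05 (edgeR adjusted p = 0.00146 and 0.000223) and rose in KG-1a by 0.13 ± 0.04 and 0.56 ± 0.04 (edgeR adjusted p = 0.0193 and 3.26e-08).

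Of DNA replication genes, which act in S phase, most were called lower in both lines. The shares of all genes called lower and higher were 22.7% and 21.2% for 8CA in MV4-11, 15.3% and 13.9% for 8AA in MV4-11, 24% and 23.4% for 8CA in KG-1a, and 26.6% and 25.4% for 8AA in KG-1a, and each list's counts are to be read against them. In MV4-11, 39 of 47 fell with 8CA (median −0.44) and 42 with 8AA (median −0.36), with 0 higher. In KG-1a, 27 fell and 4 rose with 8CA (median −0.21), and 29 fell and 2 rose with 8AA (median −0.17). In KG-1a with 8AA, 29 of 47 replication genes thus fell while 29 of the 48 mitotic genes rose, and the difference between the lists was not tested. Of 33 other kinetochore genes, 19 fell and 2 rose in MV4-11 with 8CA, and 20 fell and 0 rose with 8AA. In KG-1a 13 fell and 6 rose with 8CA, and 10 fell and 7 rose with 8AA, the latter near the shares of all genes. Among 21 condensin and cohesin genes, the counts lower and higher were 10 and 5, 14 and 0, 4 and 7, and 5 and 6 in the same order, the last near the shares of all genes. For 16 subunits and partners of the anaphase-promoting complex they were 5 and 3, 4 and 1, 6 and 3, and 4 and 3. The first and last of these pairs were also near the shares of all genes.

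Of regulators upstream, MYBL2, which encodes B-MYB, fell in all 4 comparisons. Its changes were −0.70 ± 0.05 and −0.58 ± 0.05 in MV4-11 (edgeR adjusted p = 3.46e-08 and 1.17e-06) and −0.35 ± 0.06 and −0.25 ± 0.06 in KG-1a (edgeR adjusted p = 0.000239 and 0.0027), for 8CA and 8AA. The list of 19 genes of the MuvB, MYB and RB families had 12 lower and 1 higher, 10 and 0, 7 and 3, and 7 and 6 in the order used above. WEE1, the kinase that holds CDK1 inactive, fell in MV4-11 by 0.44 ± 0.06 and 0.39 ± 0.07 (edgeR adjusted p = 5.46e-05 and 0.000344). CDKN1A, the inhibitor p21, had a value of −0.04 ± 0.06 in MV4-11 with 8CA (edgeR adjusted p = 0.617) and fell by 0.40 ± 0.06 with 8AA (edgeR adjusted p = 0.000124). In KG-1a with 8AA, CDKN1A was at −0.72 ± 0.16 (edgeR adjusted p = 0.00158) and WEE1 at −0.14 ± 0.05 (edgeR adjusted p = 0.0483), both called lower, and neither was called with 8CA (edgeR adjusted p = 0.215 and 0.0612). Among 13 tested genes that brake G2/M, which include these, 4 fell and 2 rose in MV4-11 with 8CA and 4 fell and 0 rose with 8AA, and in KG-1a 0 fell and 5 rose with 8CA and 2 fell and 7 rose with 8AA, against the shares of all genes given above. Log2 changes above 1 in KG-1a with 8AA were BTG2 at 1.39 ± 0.10 (edgeR adjusted p = 1.44e-08) and CCNG2 at 1.30 ± 0.09 (edgeR adjusted p = 1.12e-08). The 9 G1/S cyclins and kinases gave 6 lower and 2 higher, 6 and 0 in MV4-11, and of 8 tested in KG-1a 6 and 1, then 5 and 0.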

How the data were processed

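RNA-seq was done on 24 libraries of MV4-11 and KG-1a, 2 per group. The values deposited by the authors are raw read counts per gene and library, with gene position and exon length beside them. The submitters' processing notes name Trimmomatic, STAR 2.6.0, HTSeq 0.11.1 and edgeR, and the builds hg19 and hg38 without a role. Gene starts in the table lay within 1 kb of GRCh38 for 1 of the 48 genes, so no gene coordinates from it are printed. Strand use in counting is not given in the sources here, and overlapping genes and near-identical copies may share reads. By their listed spans, 21 of the 48 genes overlap another entry, some of them entries that cover very wide spans. Besides those named above, they include PLK1 with ERN2, KIF20A with CDC23, BUB1B with PAK6 and TOP2A with RARA.

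Totals of 18633963 to 24520078 counts per library and 2 libraries per group set the precision. Genes were filtered with filterByExpr (minimum count 10), scaled by TMM and tested by the quasi-likelihood test of edgeR 4.0.16 (limma 3.58.1) in R 4.3.3, with 1 coefficient per group over the 12 libraries of a line, or all 24 for differences between lines. All 48 genes passed the filter in every fit. Comparisons set each drug against untreated cells at the same hour, 8AA against 8CA, 24 h against 8 h, and 1 line against the other. A call is a p below 0.05 after Benjamini-Hochberg adjustment over every gene in the fit. Intervals are 95% from the moderated degrees of freedom.

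The members, their roles and the other gene lists were chosen with earlier results of these data known. Values per library are given for 10 anchor genes (CDK1, CCNB1, PLK1, AURKA, AURKB, CDC20, TOP2A, FOXM1, BIRC5 and BUB1B) and, in each comparison, for the 3 lowest and 3 highest called genes, and from the other lists for CDKN1A, WEE1, MYBL2, CCNA2, MKI67 and the 2 lowest and 2 highest called genes of a list at 24 h. Not all of these are printed. Alternatives were other scalings (DESeq2 size factors, library size, upper quartile), no filter and at least 10 counts in every library, the replicate letter as a covariate, other sets of libraries, each library left out, the Wald test of DESeq2 1.42.0 and a fold threshold. On simulated data with 99 genes changed by each fold, edgeR recovered 73.7% of log2 changes of 0.5 and 96% of log2 changes of 1 in the MV4-11 8AA 24 h comparison, among 12680 genes. In the KG-1a 8AA 24 h comparison, among 12570 genes, it recovered 76.8% and 89.9%. False calls numbered 11 and 12. The simulation changed 200 genes, up and down equally, in that group alone, whereas 29.1% and 51.9% of all genes were called in the data. Log2 changes below 0.5 were not simulated, so these rates may not hold for the data.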

Additional observations from a re-analysis of the deposited data

Results flagged for a closer look

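The following differences between times and between lines passed a test of the difference itself (edgeR, adjusted p below 0.05), and their causes were not tested. From 8 h to 24 h, 41 of the 48 genes were lower in MV4-11 with 8CA and 36 with 8AA, where 9.83% and 2.12% of all genes were. In KG-1a 6 were lower and 2 higher with 8CA, where 12.7% and 11.2% of all genes were, and 18 were higher with 8AA, where 7.64% were. The response of MV4-11 was above that of KG-1a for 10 genes with 8AA at 8 h, where 7.49% of all genes were. At 24 h it was below for 22 genes with 8CA and 41 with 8AA, where 5.44% and 8.51% of all genes were.

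As single libraries were left out, the 10 genes of the 8 h difference lay between 3 (without KG-1a 8CA 8 h replicate B) and 15 (without KG-1a 8AA 24 h replicate A). In KG-1a with 8CA, the 6 lower lay between 3 (without 8CA 8 h replicate A) and 11 (without 8AA 24 h replicate A), and the 2 higher between 1 (without untreated 8 h replicate B) and 6 (without 8AA 24 h replicate A). The 36 in MV4-11 became 20 without 8AA 24 h replicate A, and the 22 lay between 14 (without MV4-11 untreated 24 h replicate B) and 30 (without KG-1a 8AA 24 h replicate B). In KG-1a with 8AA the 18 lay between 8 (without untreated 24 h replicate A) and 27 (without 8AA 24 h replicate B).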

How the results depend on the processing

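Of 2246 values of named genes under alternatives, 2057 kept direction and call, 189 lost the call and 0 reversed. They cover 104 pairs of gene and comparison, 39 with a lost call, all chosen because they were called in the main fit. That choice makes reversals unlikely. Other printed calls, such as KIF11 with 8AA in KG-1a at 24 h, were not rechecked, so the absence of a lost call there says nothing of stability. Of 1152 counts, 182 moved by over 1.5 times. The causes of these moves were not tested beyond what is built into a setting, such as fewer libraries. Counts below are of the 48 genes. With a log2 fold change of at least 1 also required, 0 genes remained called in every drug, analog and time comparison, 1 was lower for MV4-11 minus KG-1a with 8AA at 24 h, and 2 were lower and 3 higher in untreated MV4-11 than KG-1a at each time.

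Against untreated cells at 8 h, MV4-11 with 8AA had 17 higher and 1 lower under library size or upper quartile scaling, 6 higher by DESeq2, and 5 higher and 1 lower in a fit of 6 libraries, where 8CA had 3 higher. With no filter, 1 was lower with 8CA. KG-1a with 8AA had 7 lower and 8 higher under library size, 7 higher under upper quartile and 10 higher in the fit of 6. KG-1a with 8CA had 1 lower by DESeq2, 2 in the fit of 24, 3 lower and 1 higher in the fit of 6, and 1 higher with no filter. At 24 h, KG-1a had 11 higher with 8CA under upper quartile, and 1 lower with 8AA under library size or upper quartile. For 8AA against 8CA at 8 h, MV4-11 had 0 lower under 5 settings, and higher counts of 1 under library size, 2 with no filter or with 10 counts in every library, and 3 under upper quartile or the fit of 24. KG-1a had 1 higher by DESeq2, 6 in the fit of 6 and 5 with no filter. At 24 h, MV4-11 had 8 lower in the fit of 6, and KG-1a 1 lower with no filter. For 24 h minus 8 h in KG-1a, 28 were higher with 8AA under upper quartile and 1 with 8CA by DESeq2. For MV4-11 minus KG-1a at 8 h, 1 was higher with 8CA with no filter or with 10 counts in every library, and 1 lower and 5 higher with 8AA with no filter. Untreated 24 h against 8 h had 1 higher in MV4-11 with no filter, and in KG-1a 2 lower by DESeq2 and 3 with no filter or DESeq2 size factors.

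The labels name no litter, batch or day that the replicate letters share. Correlations of deviations by letter were over 0.1 for 6 of 15 group pairs in MV4-11 and 2 of 15 in KG-1a (ranges −0.117 to 0.159 and −0.0846 to 0.161), and over 0.1 for all 3 pairs of the MV4-11 8 h groups (0.132 to 0.159). With the letter as a replicate block, counts moved to 6 lower for MV4-11 with 8AA at 8 h, 3 higher for its 8AA against 8CA at 8 h, 1 lower and 1 higher for KG-1a with 8CA at 8 h, 1 lower for its 8AA against 8CA at 24 h and 3 lower for its untreated 24 h against 8 h, and no other count moved by over 1.5 times.

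Leaving out single libraries gave these ranges. In MV4-11: 8CA 8 h higher 2 to 5; 8AA 8 h lower 0 to 5 and higher 5 to 10; 8AA against 8CA lower 0 to 1 and higher 0 to 2 at 8 h, lower 1 to 8 and higher 0 to 4 at 24 h; untreated 24 h against 8 h lower 1 to 4; 8AA 24 h minus 8 h lower 20 to 37. In KG-1a: 8CA 8 h lower 0 to 3 and higher 0 to 1; 8AA 8 h lower 6 to 17 and higher 0 to 10; 8CA 24 h higher 3 to 12; 8AA 24 h lower 1 to 5; 8AA against 8CA lower 2 to 10 and higher 1 to 8 at 8 h, lower 0 to 4 at 24 h; 24 h minus 8 h lower 3 to 11 and higher 1 to 6 with 8CA, lower 0 to 1 and higher 8 to 27 with 8AA; untreated 24 h against 8 h lower 0 to 11. For MV4-11 minus KG-1a: 8AA 8 h lower 0 to 2 and higher 3 to 15; 8CA 24 h lower 14 to 30. With 2 libraries per group, the median SE of the log2 change against untreated cells over the 48 genes was 0.0553 to 0.0568 across the 8 comparisons.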
